A study of Papio anubis with 12 samples.

Results

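The miR-148/152 family was described in the frontal cortex of fetal baboons (Papio anubis) whose mothers had been nutrient restricted or fed freely. Its members were the mature entries of the deposited small RNA table whose precursor was hsa-mir-148a, hsa-mir-148b or hsa-mir-152. That gave 5 mature miRNAs of the 1921 mature names, from 3 of the 1527 precursors: miR-148a-3p (MIMAT0000243), miR-148a-5p (MIMAT0004549), miR-148b-3p (MIMAT0000759), miR-148b-5p (MIMAT0004699) and miR-152 (MIMAT0000438), which the table lists with a single strand and no arm in its name. Each had reads in every fetus, and all 5 passed the filter on low values. None shared all of its values with another name.

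A microRNA is cut from a hairpin precursor as a duplex of a 5p and a 3p strand; the guide strand is kept in the silencing complex and pairs through its seed with messenger RNAs, while most copies of the passenger strand are degraded. The guide strands of miR-148a, miR-148b and miR-152 share a seed and so overlap in their predicted targets. In human and mouse cells the family is known for repressing DNA methyltransferases (DNMT1 and DNMT3B), and miR-148a for repressing the low density lipoprotein receptor and the cholesterol exporter ABCA1 in liver. In humans miR-148b lies within COPZ1 and miR-152 within COPZ2, both coat protein genes, so each can be made from its host's transcript.

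The MNR group held 6 fetuses of mothers given 70% of the feed that control mothers ate per kilogram, and the control group 6 fetuses of mothers that ate to appetite; all were taken at day 165 of gestation. In both diets replicates 1 to 3 were females and replicates 4 to 6 males, and each fetus gave 1 small RNA library from total RNA. The labels name no strain, dam, cortical layer or sorted cell type, so the tissue is a mixture of cells, in which fewer cells of a type and less RNA per cell cannot be told apart.

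Summed over all entries of the table, libraries held 1078720 to 1464660 reads in MNR fetuses and 513029 to 1898763 in control fetuses. A name with several entries adds to that sum with each of them. With 1 entry per name the reads were 662974 to 871606 in MNR fetuses and 299716 to 1079367 in control fetuses. Levels are reads per 1000000 (RPM) as deposited, scaled to the sum over all entries. On that scale 1 read was worth 0.683 to 0.927 RPM in MNR libraries and 0.527 to 1.95 RPM in control libraries. The shallowest library was control replicate 6, a male. It had the highest value of the 12 fetuses for 60 of the 481 names tested (12.5%), and MNR replicate 4 for 141. Marker miRNAs of neurons summed to 97692 to 122634 RPM in MNR fetuses and 88477 to 114794 RPM in control fetuses, led by miR-9-5p. No other brain region was compared, so these sums do not test the cortical label.

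The family was dominated by 1 strand. miR-148a-3p, the guide strand of hsa-mir-148a, averaged 6002 RPM over the 12 fetuses, the 22nd highest mean in the table. miR-148b-3p, the guide of hsa-mir-148b, stood at rank 62 and miR-152 at rank 215. The passenger strands miR-148a-5p and miR-148b-5p stood at ranks 213 and 238.

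The order of the levels was tested between neighbours with an exact two-sided sign-flip permutation test over the 12 fetuses, adjusted over the 4 pairs. Neighbours were set by the mean RPM of the same fetuses, so the pairs and their direction were not fixed beforehand. miR-148a-3p exceeded miR-148b-3p in 12 of 12 fetuses, by 2.24 ± 0.51 on the log2(RPM + 1) scale (SD), and miR-148b-3p exceeded miR-148a-5p in 12 of 12, by 4.63 ± 0.80. In both pairs p was 0.000488, the smallest that 12 fetuses allow in this exact test, or 0.000977 after adjustment. Neighbours among the 3 scarce strands did not differ beyond their spread. miR-148a-5p was above miR-152 in 7 of 12 fetuses (mean difference 0.20 ± 0.99, exact p = 0.520, adjusted 0.520), and miR-152 was above miR-148b-5p in 8 of 12 (0.23 ± 0.88, exact p = 0.387, adjusted 0.516). The outer pair of these 3, compared after the values were seen, did differ: miR-148a-5p was above miR-148b-5p in 11 of 12 fetuses, with 1 tie in control replicate 6 (0.42 ± 0.32, SD; exact sign-flip permutation p = 0.000977, outside the adjustment over the 4 pairs). These are differences between names within a fetus; small RNA libraries capture different sequences with unequal efficiency, which was not measured here.

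**Figure D1:**
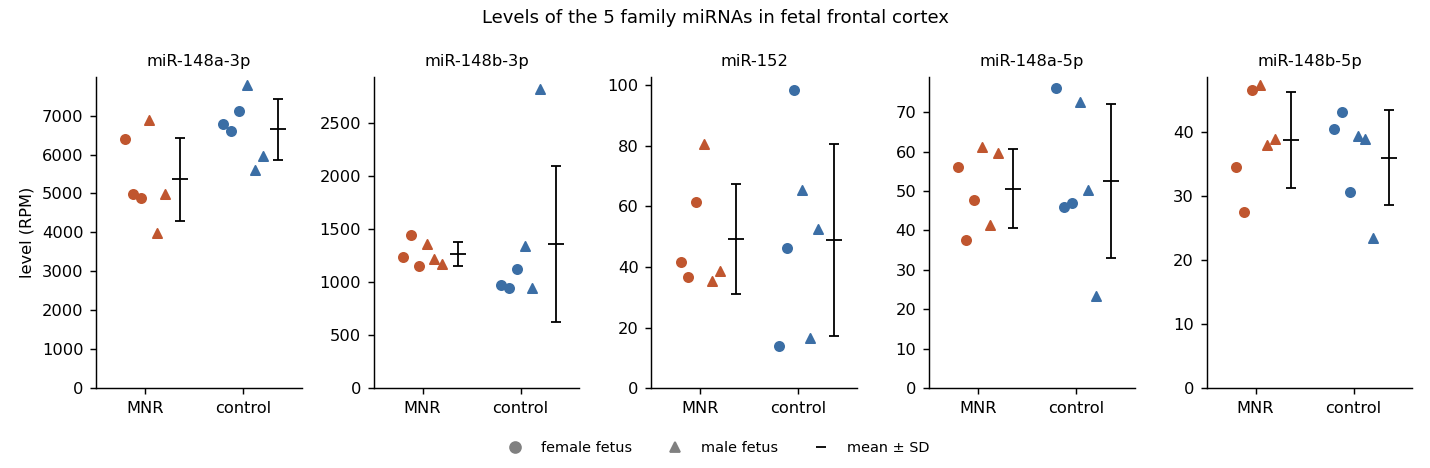
Level of each family miRNA in RPM (linear axes from 0, a separate scale per panel) in the MNR and control fetuses; points are fetuses, circles females and triangles males, and bars give the mean ± SD (n = 6 each). For miR-148a-3p, 4 MNR fetuses lie below the lowest control, a count not made for names outside the family. For miR-148b-3p, control replicate 6 stands at 2824.4 RPM, above the other 11 fetuses.

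Whether maternal restriction went with a change in the family was asked with limma on log2(RPM + 1) over all 481 names with a mean of at least 1 RPM. None of the 5 family miRNAs passed an adjusted p of 0.05, and 1 of them, miR-148a-3p, had an unadjusted p below 0.05. Over the whole table limma called 13 of 481 names, or 2.70%, with 12 higher and 1 lower in MNR fetuses, and 105 names had an unadjusted p below 0.05. edgeR's quasi-likelihood test on the recovered reads called 0 of the 5 (again 1 at an unadjusted p below 0.05) and 3 of all names (1 higher, 2 lower). DESeq2 called 1 of the 5, miR-148a-3p as lower, against 9 of the 229 names that kept an adjusted p in that tool (3.93%). The table's 13 calls moved with single fetuses: leaving out 1 fetus gave 1 to 26 calls, 26 without control replicate 1 and 1 or 2 in 9 of the 12 cases.

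miR-148a-3p was the family member nearest to a diet difference. Its lowest, median and highest levels were 3998, 4985 and 6897 RPM in MNR fetuses and 5593, 6693 and 7799 RPM in control fetuses. The groups overlapped: 5 of 6 MNR fetuses lay below the control median and 4 below the lowest control. Above the highest MNR fetus lay 2 controls. These counts were not made for names outside the family, so how unusual they are is not known. Means were 5360 ± 1077 RPM in MNR fetuses and 6645 ± 792 RPM in control fetuses (SD, n = 6 each). The log2 difference was -0.33 with an SE of 0.14 and a 95% interval of -0.62 to -0.03, and limma's adjusted p was 0.198 (unadjusted 0.0338). The authors' deposited table gives an unadjusted p of 0.0403 for the same comparison.

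On deposited RPM that difference ran against most of the table. The median log2 difference over the 481 names was 0.23, with 21.6% of names below 0, so miR-148a-3p stood 0.55 below the median and was the 27th lowest name. Scaling moved it accordingly: with median-ratio scaling the log2 difference was -0.55 (limma, adjusted p = 0.102), with TMM -0.52 (limma, 0.103), with edgeR -0.51 (0.108) and with DESeq2 -0.54 (0.00972). The rest of the table moved as well. Its median log2 difference was 0.03 with median-ratio scaling (46.4% of names below 0) and 0.06 with TMM (42.8%). It was 0.06 with edgeR (44.9%) and 0.01 with DESeq2 (48.9%). Of the 24 alternatives tried, only those with DESeq2 put miR-148a-3p past the threshold, at 0.0204 when that tool's independent filtering was off. Leaving out each fetus in turn kept it between -0.40 and -0.25, with limma adjusted p-values of 0.135 to 0.352.

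miR-148b-3p, the paralogue from another hairpin, had its lowest, median and highest levels at 1155, 1225 and 1444 RPM in MNR fetuses and 942, 1049 and 2824 RPM in control fetuses. Every one of the 6 MNR values exceeded the control median, and 1 control, replicate 6, lay above every MNR fetus. How many of the 481 names had all MNR values above the control median was not counted. On this scale 21.6% of names had a log2 difference below 0. Means were 1264 ± 114 RPM in MNR fetuses and 1359 ± 734 RPM in control fetuses (SD, n = 6 each), or 1066 ± 171 RPM for the control fetuses without replicate 6 (n = 5). The log2 difference was 0.02 with an SE of 0.22 (limma, adjusted p = 0.970). Without control replicate 6 it was 0.25 (limma, adjusted p = 0.233). The depth of that library beside its level is given above; its part in the value was not tested.

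miR-152 was the most variable member. It had 35.4, 40.3 and 80.7 RPM as lowest, median and highest levels in MNR fetuses, and 13.9, 49.5 and 98.5 RPM in control fetuses, with the control range enclosing the MNR range. Means were 49.1 ± 18.1 RPM in MNR fetuses and 48.9 ± 31.7 RPM in control fetuses (SD, n = 6 each), and the log2 difference was 0.24 with an SE of 0.39 (limma, adjusted p = 0.778). Its highest value over all 12 fetuses was 7.07 times its lowest, and its SD on the log2 scale, 0.81, was the 43rd widest of 481 names, whose median SD was 0.45. The SD was 0.28 for miR-148a-3p and 0.42 for miR-148b-3p.

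Neither passenger strand showed a difference beyond its spread. miR-148a-5p averaged 50.6 ± 9.90 RPM in MNR fetuses and 52.5 ± 19.5 RPM in control fetuses (log2 difference 0.02, SE 0.25, limma adjusted p = 0.970). miR-148b-5p averaged 38.7 ± 7.47 RPM in MNR fetuses and 35.9 ± 7.43 RPM in control fetuses (0.11, SE 0.20, limma adjusted p = 0.786). The signs of these small differences rest on the scaling: miR-148a-5p, miR-148b-5p and miR-148b-3p were above 0 on deposited RPM and below 0 with median-ratio scaling, TMM, edgeR, voom and DESeq2, and miR-152 was below 0 with edgeR and DESeq2.

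**Figure D2:**
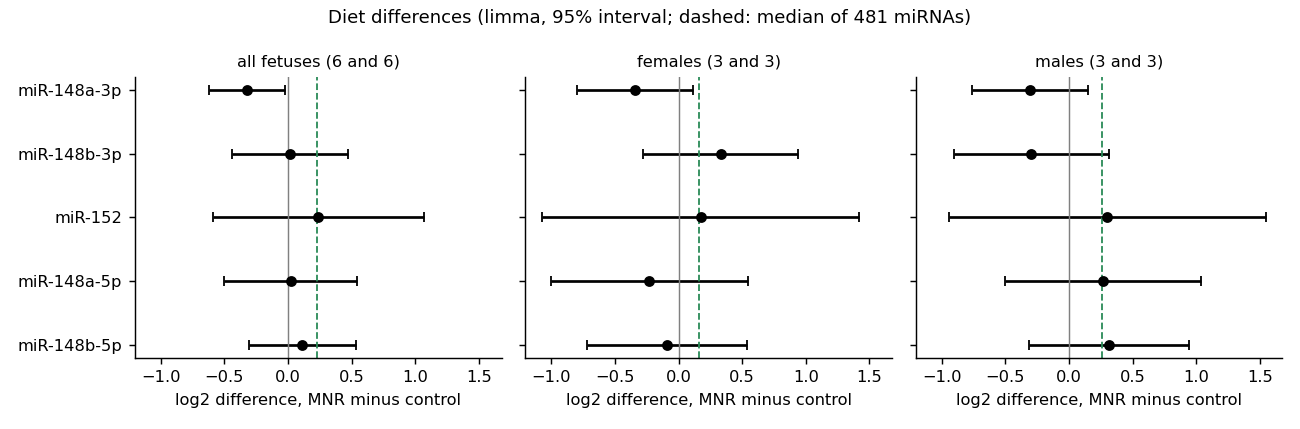
Log2 difference of MNR minus control (limma on log2(RPM + 1)) for the 5 family miRNAs in all fetuses, females and males; points are estimates, bars 95% intervals, and the dashed line is the median of 481 miRNAs. Over all fetuses the interval of miR-148a-3p, -0.62 to -0.03, is the one that leaves out 0.

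Sex was examined because each diet held 3 fetuses of each. In females, all 3 MNR fetuses had less miR-148a-3p than all 3 controls, with 4894, 4976 and 6400 RPM in MNR females and 6601, 6786 and 7118 RPM in control females; 6 of the 481 names, or 1.25%, were ordered that way. All 3 MNR females also had more miR-148b-3p than all 3 control females, at 1155, 1235 and 1444 RPM in MNR females and 942, 976 and 1122 RPM in control females, an order found for 71 of the 481 names (14.8%). In males the groups overlapped for both. The log2 difference of miR-148a-3p was -0.34 in females and -0.31 in males (limma, adjusted p = 0.609 and 0.485). The male value was -0.12 without MNR replicate 5, -0.16 without control replicate 4 and -0.52 without MNR replicate 4. For miR-148b-3p it was 0.33 in females and -0.30 in males (limma, adjusted p = 0.741 and 0.657), and the male value was 0.14 without control replicate 6 and -0.64 without control replicate 5.

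No family miRNA passed in any of the sex comparisons. limma called 0 of 5 for diet within females, diet within males, the difference of the diet effect between sexes, and male against female, and none of the 5 had an unadjusted p below 0.05 in any of the 4. edgeR also called 0 of 5 in each, with 1 at an unadjusted p below 0.05 in females and 2 in males. The whole table held 39 of 481 such names by edgeR in females and 49 in males. Over all names limma called 0% in females (49 of 481 at an unadjusted p below 0.05) and 1.66% in males (8 names, all lower in MNR males). In males 78 names had an unadjusted p below 0.05 with limma. It called 0% for diet by sex (24 at an unadjusted p below 0.05) and 0% for sex (17). edgeR called 0 names in females, 8 in males, 0 for diet by sex and 0 for sex. The diet effect on miR-148b-3p differed between males and females by -0.63 with an SE of 0.41 (limma, adjusted p = 0.909). It was -0.19 without control replicate 6 and -0.97 without control replicate 5.

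Because the 3 guides share a seed, their summed level and its makeup were described as well, with no test, since the members were chosen together. The sum of the 3 guides ran from 5249 to 8339 RPM in MNR fetuses (mean 6673 ± 1131) and from 6557 to 9207 RPM in control fetuses (8053 ± 957). miR-148a-3p made up 80.0 ± 2.91% of that sum in MNR fetuses and 82.8 ± 7.59% in control fetuses, and miR-148b-3p 19.3 ± 2.96% in MNR fetuses and 16.6 ± 7.57% in control fetuses (SD, n = 6 each). miR-152 supplied 0.731% in MNR fetuses and 0.589% in control fetuses on average.

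The ratio of miR-148a-3p to miR-148b-3p cancels a scaling factor shared by a library. It was 5.18, 3.45, 4.24, 5.07, 3.29 and 4.26 in MNR replicates 1 to 6, and 6.95, 7.01, 6.34, 5.81, 5.90 and 2.12 in control replicates 1 to 6. Control replicates 1 to 5 therefore all lay above the 6 MNR fetuses, and control replicate 6 lay below them all. The ratio was not tested by diet, and how many other pairs of names are ordered this way was not counted. In that library miR-148b-3p made up 31.9% of the 3 guides, against 12.4 to 14.6% in the other 5 controls.

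**Figure D3:**
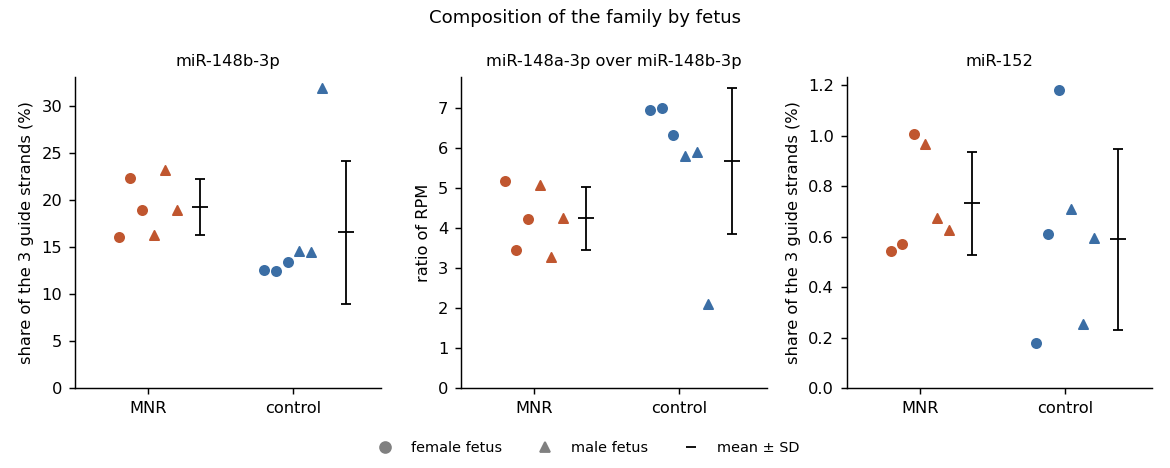
Share of miR-148b-3p in the 3 guide strands (%), ratio of miR-148a-3p to miR-148b-3p in RPM, and share of miR-152 (%) in MNR and control fetuses; points are fetuses (circles females, triangles males) and bars the mean ± SD (n = 6 each). The ratio spans 3.29 to 5.18 in MNR fetuses and 5.81 to 7.01 in 5 controls, with control replicate 6 at 2.12.

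Both hairpins with 2 measured strands kept mostly the 3p strand. The 5p strand held 0.945 ± 0.149% of the reads of hsa-mir-148a in MNR fetuses and 0.776 ± 0.252% in control fetuses. For hsa-mir-148b it held 3.01 ± 0.677% in MNR fetuses and 3.10 ± 1.31% in control fetuses (SD, n = 6 each). Over all reads of the 12 libraries the 3p strand was 116 times the 5p strand for hsa-mir-148a, the 44th most one-sided of 160 hairpins with both strands measured, and 31.8 times for hsa-mir-148b, the 69th, against a median of 18.7.

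The balance of the strands did not differ by diet beyond the spread. The log2 ratio of 5p to 3p differed by 0.34 with an SE of 0.23 for hsa-mir-148a (limma over 160 hairpins, adjusted p = 0.562) and by 0.09 with an SE of 0.36 for hsa-mir-148b (limma, adjusted p = 0.916). limma called 0% of the 160 hairpins, and 23 had an unadjusted p below 0.05; no other tool was run on the ratios. Control replicate 6 had the lowest 5p share of the 12 fetuses for both hairpins, 0.390% and 0.821%, each resting on 12 reads of the 5p strand. Without it the log2 ratio differed by 0.17 for hsa-mir-148a and by -0.26 for hsa-mir-148b (limma, adjusted p = 0.699 and 0.596).

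**Figure D4:**
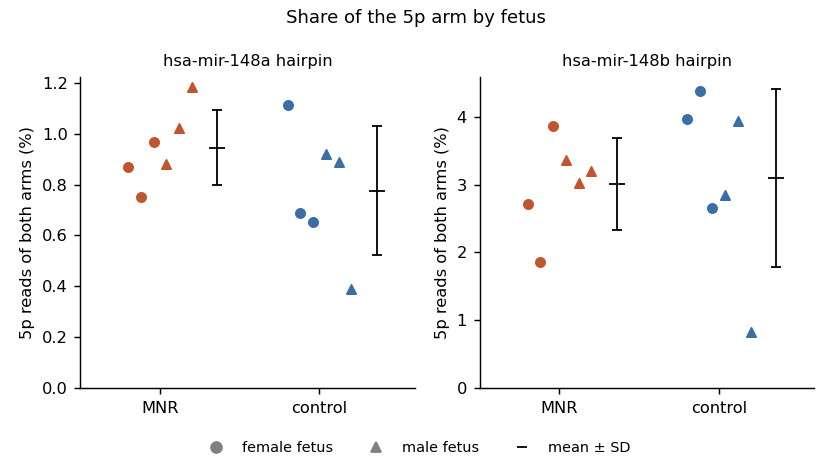
Share of the 5p strand in the reads of both strands (%) for hsa-mir-148a and hsa-mir-148b in MNR and control fetuses; points are fetuses (circles females, triangles males) and bars the mean ± SD (n = 6 each). The lowest point of each panel is control replicate 6, at 0.390% and 0.821%.

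Over the 12 fetuses the 2 strands of a hairpin did not move together in a way that passed adjustment. This was 1 family of 5 relations on log2(RPM + 1), with p from a permutation test. For hsa-mir-148a, r between the strands was 0.40 (permutation p = 0.198, adjusted 0.457) and rho 0.52 (p = 0.0904, adjusted 0.235), and r was 0.40 without the 2 fetuses farthest from the median. For hsa-mir-148b, r was -0.69 (permutation p = 0.0159, adjusted 0.0795) and rho -0.42 (p = 0.176, adjusted 0.293). Without control replicates 6 and 2, r was -0.21, so the relation rests on those fetuses. miR-148a-3p and miR-148b-3p gave r = -0.03 (permutation p = 0.937) and rho = -0.06 (p = 0.871). miR-152 gave r = 0.27 with miR-148a-3p (permutation p = 0.4004, rho 0.51, p = 0.0940) and 0.34 with miR-148b-3p (p = 0.274, rho 0.27, p = 0.391). Without the 2 fetuses farthest from the median these 3 values of r were -0.12, 0.39 and 0.61, the last without control replicates 6 and 2. The adjusted p-values of these 3 relations were 0.235 or more.

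The names whose levels ran most like each guide over the 12 fetuses were listed among 476 names outside the family, by Pearson's r, as a description. For miR-148a-3p they were miR-548w (0.75), miR-199a-5p (0.64), known from mesenchymal cells, and miR-548d-5p (0.63); miR-548w and miR-548d-5p averaged below 3 RPM in both diets. For miR-152 they were miR-455-3p (0.84), miR-532-3p (0.75) and miR-4677-3p (0.72). All 3 averaged at most 5.61 RPM in either diet, and miR-4677-3p had 0 RPM in control replicate 1. For miR-148b-3p they were miR-138-1-3p (0.86), from a hairpin of the brain-enriched miR-138, miR-18a-5p (0.85), of the miR-17/92 cluster, and let-7c (0.84), of the let-7 family. Those 3 had their own highest value in control replicate 6, and without that library r was 0.82, 0.67 and 0.41. The fetuses share library depth and scaling, which r does not remove.

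The table also holds a pooled read count per entry that exceeds what the 12 libraries hold. With 1 entry per mature name, 64961211 of its reads (87.9%) lie outside the 12 libraries and 8919015 within them. What those outside reads come from is not stated, so the values below describe 2 pools of reads with no replicates, and intervals cover counting error only. Here shares are per 1000000 reads of that reduced table, in which miR-148a-3p has a higher value than its deposited RPM.

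Strands of hsa-mir-148a held a smaller share of the cortex reads than of the outside reads, and strands of hsa-mir-148b a larger one. miR-148a-3p made up 10378 per 1000000 of the cortex reads and 22429 per 1000000 of the outside reads, where it was the 9th most abundant name. Its ratio of cortex to outside was 0.463 (95% interval 0.460 to 0.466), the 57th lowest of the 481 names. miR-148a-5p, from the same hairpin, had 89.8 per 1000000 in cortex and 231 outside, a ratio of 0.389. miR-152 was likewise lower in cortex, with 85.5 per 1000000 in cortex and 133 outside, a ratio of 0.641 (0.595 to 0.691). By contrast, miR-148b-3p had 2085 per 1000000 in cortex and 629 outside, a ratio of 3.32 (3.26 to 3.37), and miR-148b-5p had 65.5 in cortex and 17.7 outside, a ratio of 3.70.

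The median ratio of the 481 names was 3.32, so both strands of hsa-mir-148b lay at the middle of the table and the other 3 members well below it. A single name, miR-10b-5p, accounted for 375448 per 1000000 of the outside reads, which lowers every other outside share. Leaving it out of both totals gave ratios of 0.290 for miR-148a-3p, 2.08 for miR-148b-3p and 0.402 for miR-152. These lay on the same side of 1 as before. The step scales all remaining ratios by the same factor, so it cannot change their order and is no separate check. Among the 3 guides, miR-148b-3p made up 16.6% of the reads in cortex and 2.71% outside, and miR-148a-3p 82.7% in cortex and 96.7% outside. The 5p share was 0.858% in cortex and 1.02% outside for hsa-mir-148a, and 3.04% in cortex and 2.74% outside for hsa-mir-148b.

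**Figure D5:**
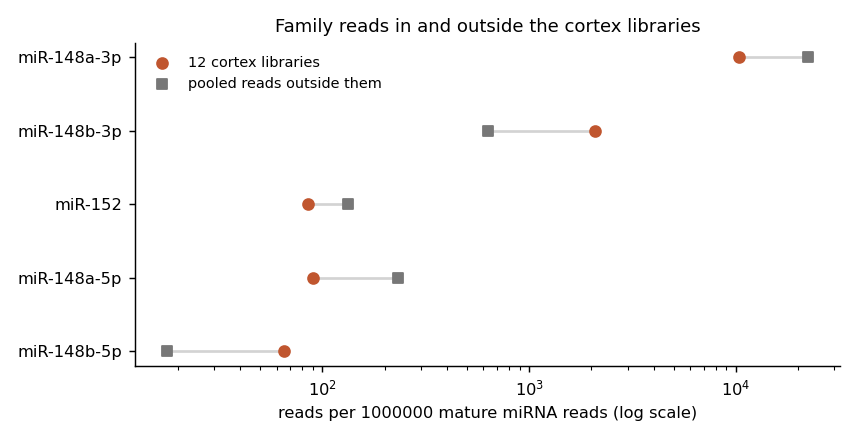
Reads of each family miRNA per 1000000 mature miRNA reads (log axis) in the 12 cortex libraries together and in the pooled reads outside them; there are no replicates. Both strands of hsa-mir-148b lie to the right in cortex, while miR-148a-3p, miR-148a-5p and miR-152 lie to the right outside.

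Other miRNAs reported to act on the same targets in human or mouse cells were counted beside the 2.70% called over all 481 names. Of 9 miRNAs with a DNA methyltransferase target, limma called 1 higher and 0 lower in MNR fetuses, with a median log2 difference of 0.12 against 0.23 over all 481 names. The one called was miR-185-5p, at 85.6 ± 17.5 RPM in MNR fetuses and 50.1 ± 13.4 RPM in control fetuses (0.78, limma adjusted p = 0.0471). Over the whole table, 12 names were called higher on deposited RPM, and 1 with median-ratio scaling, TMM, edgeR or voom. Whether miR-185-5p kept its call in those settings is not given here. The most abundant of that list, miR-143-3p and miR-101-3p, had log2 differences of -0.26 and 0.03 (limma, adjusted p = 0.587 and 0.926).

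Of 14 miRNAs with an LDL receptor or ABCA1 target, limma called 1 higher, again miR-185-5p, and 0 lower, with a median of 0.26. The most abundant there were miR-26a-5p, at 40008 ± 8084 RPM in MNR fetuses and 75129 ± 38885 RPM in control fetuses (-0.79, limma adjusted p = 0.0813), and miR-128, at 20654 ± 1645 RPM in MNR fetuses and 16151 ± 4099 RPM in control fetuses (0.39, adjusted p = 0.170). The miR-130 and miR-301 family, whose seed overlaps that of the miR-148 family with an offset, gave 0 limma calls of 5 and a median of -0.10; miR-130a-3p had 761 ± 147 RPM in MNR fetuses and 814 ± 79.7 RPM in control fetuses, and miR-301a-3p had 681 ± 89.7 RPM in MNR fetuses and 739 ± 141 RPM in control fetuses.

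Markers of other cell types stood beside these levels, and none of the 9 marker lists summed to 0 in any fetus. Their counts of calls stand beside 2.70% called over all 481 names, and none exceeded 1 miRNA. Those calls are on deposited RPM, where 12 names of the whole table were called higher. With median-ratio scaling, TMM, edgeR or voom 1 name was, and which marker calls remained is not given here. Smooth muscle and mesenchyme markers, led by miR-143-3p, summed to 12067 to 36912 RPM in MNR fetuses and 19740 to 30494 RPM in control fetuses, with 0 of 7 called by limma. The endothelial pair, led by miR-126-5p, summed to 4865 to 12097 RPM in MNR fetuses and 4651 to 10251 RPM in control fetuses, with 0 of 2 called. Erythroid markers, led by miR-486-5p, summed to 3114 to 5704 RPM in MNR fetuses and 2164 to 3920 RPM in control fetuses, and 1 of 4 was called higher, miR-451a (1.20, limma adjusted p = 0.00922).

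Liver markers, of interest since miR-148a is abundant in liver, were led by miR-192-5p; their sum was 337 to 536 RPM in MNR fetuses and 251 to 461 RPM in control fetuses. The defining liver miRNA, miR-122-5p, averaged 0.228 ± 0.559 RPM in MNR fetuses and 3.54 ± 3.29 RPM in control fetuses. It was called lower (-1.73, limma adjusted p = 0.0440). Its MNR mean lay below the minimum mean of 1 RPM, so it passed that filter through the control fetuses. That mean also lay below the 0.683 RPM that 1 read was worth in MNR replicate 3, the deepest MNR library. The call of miR-122-5p therefore rests on mean levels of a few RPM or less. The choroid plexus list, led by miR-204-5p, summed to 759 to 1929 RPM in MNR fetuses and 609 to 2123 RPM in control fetuses, with its highest sum in control replicate 6 and 0 of 5 called. Sums were 331 to 503 RPM in MNR fetuses and 249 to 371 RPM in control fetuses for oligodendrocytes (led by miR-338-3p, 0 of 4 called), and 362 to 921 RPM in MNR fetuses and 488 to 554 RPM in control fetuses for leukocytes and microglia (led by miR-146a-5p, 0 of 6 called). Epithelial markers, led by miR-141-3p, summed to at most 6.50 RPM in MNR fetuses and 18.3 RPM in control fetuses. Among neuronal markers 1 of 6 was called higher, miR-129-5p (0.53, limma adjusted p = 0.0440). The part of any of these in the family's values was not tested.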

How the data were processed

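Small RNA of 12 fetal frontal cortices was sequenced, 1 library per fetus, with a column kit and an Illumina small RNA kit, per the labels' protocols. One table was used, which per the file headers holds RPM for each fetus, deposited by the authors, the authors' pooled read count per entry, and the authors' unadjusted p-values for 3 diet comparisons. Which aligner was used is not given in the sources used here; hg18 appears in the submitters' processing notes without a role. Entries pair human miRBase names with precursors. Of 1921 names, 202 had several entries, and for each the one with the most reads was taken. RPM columns were scaled over all 2234 entries.

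The steps between low RPM values gave back read numbers: in each library 100% of values came out whole to within 0.0051 RPM. On these recovered reads edgeR called 3 names by diet. The main test was limma with a trend on log2(RPM + 1) of 481 names with a mean of at least 1 RPM, Benjamini-Hochberg adjusted over all 481, threshold 0.05; this scale understates differences of low names. Sex comparisons used 1 fit of 4 cells of 3 fetuses, and strand ratios were fitted over 160 hairpins. Because the unit was RPM, edgeR's quasi-likelihood test served as an alternative, beside DESeq2, voom, other scalings, filters, pseudocounts and leaving out each fetus. Correlations used 100000 permutations. Versions were R 4.3.3, limma 3.58.1, edgeR 4.0.16, DESeq2 1.42.0, Python 3.11.15 and SciPy 1.17.1, and the fits were tested on simulated data.

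Replicates are numbered in record order, and the numbers pair no fetuses. No batch or date is labelled. Reads carry no molecular identifiers. Intervals of the pooled read shares cover counting error only, while limma's intervals and the p-values rest on the spread between these fetuses. Names were chosen by rule: all family strands, the 3 names most correlated with each guide, the 2 most abundant and every called miRNA of the target lists, and the top marker per cell type. Called markers were also named, after their values were seen. Members and lists were chosen with earlier results of these data known.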

Additional observations from a re-analysis of the deposited data

Results flagged for a closer look

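Among 16 groups of 6 fetuses checked for a library standing apart from the rest, 1 was set aside for a closer look; chance flags about 1 in 20 groups. It was the control group of miR-148b-3p, where replicate 6 had 2824.4 RPM and the gap to the next control filled 0.787 of the group's range, against a critical value of 0.625.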

How the results depend on the processing

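miR-148a-3p kept its direction by diet under all 24 alternatives, and DESeq2 alone called it (-0.54, with and without independent filtering), which made 1 family call. The table's 13 calls became 1 with log2(RPM + 5) or no filter, 3 with median-ratio scaling, TMM, edgeR or voom, 7 with sex as a covariate or DESeq2 without independent filtering (chosen after seeing the data), and 1 to 26 on leaving out 1 fetus. They were 16 with a minimum mean of 10 RPM and 19 with 1 entry per name in the total. The cause of these changes was not tested.

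The small diet differences of the other members turned below 0 in these settings. With median-ratio scaling they were -0.20 for miR-148a-5p, -0.10 for miR-148b-5p and -0.20 for miR-148b-3p; with TMM -0.17, -0.076 and -0.17; with voom -0.23, -0.12 and -0.16. With edgeR they were -0.26, -0.12 and -0.28, and -0.24 for miR-152. DESeq2 gave -0.30, -0.16 and -0.31, and -0.28 for miR-152, with either filtering. On leaving out 1 fetus the ranges were -0.19 to 0.14 for miR-148a-5p, -0.0018 to 0.20 for miR-148b-5p, -0.063 to 0.25 for miR-148b-3p and -0.051 to 0.50 for miR-152.

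In females miR-152 was -0.012 with median-ratio scaling and -0.43 with edgeR, and in males miR-148a-5p was -0.12 with edgeR. For diet by sex, miR-148a-3p was -0.029, -0.033 and -0.035 with median-ratio scaling, TMM and edgeR. For male against female, miR-148b-5p was -0.019, -0.039 and -0.012, and miR-152 -0.023, -0.043 and -0.18, in the same settings. On leaving out 1 fetus the ranges in females were -0.36 to 0.0067 for miR-148a-5p, -0.28 to 0.089 for miR-148b-5p and -0.56 to 0.81 for miR-152. In males they were -0.18 to 0.62 for miR-148a-5p, -0.52 to -0.12 for miR-148a-3p, -0.64 to 0.14 for miR-148b-3p and -0.28 to 0.67 for miR-152. For diet by sex they were -0.17 to 0.22 for miR-148a-3p, -0.97 to -0.19 for miR-148b-3p and -0.51 to 0.86 for miR-152. For male against female they were -0.23 to 0.16 for miR-148a-5p, -0.18 to 0.014 for miR-148a-3p, -0.074 to 0.13 for miR-148b-5p and -0.35 to 0.33 for miR-152. The arm balance of hsa-mir-148a ran from 0.17 to 0.46 and that of hsa-mir-148b from -0.26 to 0.23, and the order of miR-148a-5p over miR-152 from -0.00029 to 0.32. No family miRNA was called by limma in any of these.

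With all entries in the totals, the ratios of cortex to outside reads were 0.262 for miR-148a-5p, 0.312 for miR-148a-3p, 2.49 for miR-148b-5p, 2.24 for miR-148b-3p and 0.432 for miR-152. Without the most abundant outside name, a setting chosen after seeing the data, they were 0.243, 0.290, 2.32, 2.08 and 0.402. Depth limits the scarce strands most: control replicate 6 held 12 reads of each 5p strand. No paired analysis was possible because the replicate numbers follow record order and pair no fetuses.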
